A study of Mus musculus with 9 samples.

Results

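Cytosolic ribosomal proteins are the protein part of the ribosomes that translate messenger RNA outside mitochondria. Their genes were taken from the kidney table as the protein-coding genes named Rpl or Rps plus a number, with an optional a or x, together with Rplp0, Rplp1, Rplp2 and Rpsa. The rule found 76 of 54532 genes, 46 of the large subunit and 30 of the small subunit. It uses names only, and leaves out the cytosolic ribosomal protein genes Fau and Rps3a1 and the ribosome-bound scaffold Rack1, which are described after the members.

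The RNA was from kidney tissue of male C57BL/6J mice, 4 months old, with 3 libraries in each of 3 groups. PBA libraries came from mice that were hindlimb unloaded, a model of disuse and of microgravity in which the hind limbs are lifted off the ground, and that were injected intraperitoneally with 100 mg per kg per day of 4-PBA (4-phenylbutyric acid, a chemical chaperone). HU libraries came from hindlimb-unloaded mice given vehicle, and GC libraries from untreated ground control mice, so vehicle and unloading were not separated. In bulk tissue such as this, fewer cells of a type and less RNA per cell cannot be told apart. How long the mice were unloaded is not given in the sources used here, and the labels tie no library to a named animal, so p-values measure the spread between these samples.

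A ribosome carries a single copy of most of these proteins, and the cell makes them in matched amounts together with ribosomal RNA. Mammalian ribosomal protein mRNAs begin with a run of pyrimidines, the 5′ terminal oligopyrimidine (TOP) tract, through which mTORC1 and the RNA-binding protein LARP1 control their translation as a group. The kidney, like other organs, keeps these mRNAs at high levels, and mammalian genomes hold many processed pseudogenes copied from them.

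The start sites of the members were read from RefSeq (build GRCm38.p6), which held a window of 250 bases before to 50 after the start for 56 of the 76 genes, 66 windows in all. A run of at least 7 C or T held the annotated start in 19 of the 66 windows (28.8%), against 5.28% of all 32851 windows in the table. Such a run lay anywhere from 10 bases before to 20 after the start in 31 of the 66 (47.0%), against 17.9% of all windows. A few of the starts held by a run are shown, as the tract is the sequence by which the family is best known. Each is 30 bases, from 10 before to 20 from the start onward, with the pyrimidine run in capitals. Part of each run lies before the annotated start.
Rplp2 (chr7:141447641-141447670, plus strand): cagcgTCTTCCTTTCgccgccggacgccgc
Rps6 (chr4:86857348-86857377, minus strand): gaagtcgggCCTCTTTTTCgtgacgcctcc
Rpl15 (chr14:18270967-18270996, minus strand): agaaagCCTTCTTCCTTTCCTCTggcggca
Rpl38 (chr11:114668570-114668599, plus strand): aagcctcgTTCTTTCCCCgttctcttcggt
Rps10 (chr17:27635225-27635254, minus strand): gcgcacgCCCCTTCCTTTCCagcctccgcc

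A tract was present both in Rpl38 and in Rps10, whose deposited levels averaged 266 and 0.270 FPKM (fragments per kilobase of gene, scaled by a constant of the library). Rplp2 is a protein of the ribosomal stalk, Rps6 the substrate of the S6 kinases, and Rpl15 a large subunit protein whose gene is mutated in some cases of Diamond-Blackfan anaemia, an inherited failure of red cell production. Over the whole 300 bases, on both strands, CCGGAAG (a core of ETS factor sites) was found in 36.4% of member windows, against 8.86% of all windows. AAGATGGC, a core of YY1 sites, was found in 10.6% of member windows and 2.75% of all windows. TATAAA, searched on the strand of the gene only, was found in 7.58% of member windows and 8.32% of all windows. These matches describe letters in the windows only.

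Depth, recovered from the deposited values, ran from 7595631 to 15141784 reads a library. Reads of the mitochondrial genome made up 13.7% to 67.1% of these in PBA, 63.7% to 79.3% in HU and 14.8% to 49.7% in GC libraries, with PBA3 at 67.1% and GC3 at 49.7% apart from the rest of their groups. Of 10 kidney marker genes 6 were lower in HU than in GC and 3 higher in PBA than in HU; their summed level was 440 to 1668 FPKM in PBA, 279 to 369 FPKM in HU and 1139 to 1397 FPKM in GC libraries. Of the 10, 1 was at 0 in PBA3 and 2 were at 0 in HU1. The 5 fibroblast markers summed to 11.9 to 207 FPKM in PBA, 102 to 239 FPKM in HU and 14.2 to 42.1 FPKM in GC libraries. Erythroid markers summed to 416 to 1391 FPKM in PBA, 206 to 312 FPKM in HU and 482 to 1913 FPKM in GC libraries, and urothelium markers to 20.3 to 65.3 FPKM in PBA, 1.93 to 19.2 FPKM in HU and 1.31 to 12.99 FPKM in GC libraries, with no gene of either list called. Leukocyte markers summed to 16.6 to 43.6 FPKM in PBA, 9.45 to 15.8 FPKM in HU and 17.6 to 28.1 FPKM in GC libraries. Of 3 liver markers tested 1 was called, lower in PBA than in HU and higher in HU than in GC. The other 2 had negative HU over GC differences, and the median log2 difference of the 3 was -1.88. All 4 liver markers summed to 24.2 to 97.4 FPKM in PBA, 13.0 to 72.0 FPKM in HU and 56.0 to 106 FPKM in GC libraries. What part these differences had in the results below was not tested. Without PBA3 and without GC3 the counts of members called, all 0, were the same, but the share of all genes called moved. In HU against GC it was 10.2% with all libraries, 18.7% without PBA3 and 0.997% without GC3. In PBA against HU it was 2.69% with all libraries, 10.4% without PBA3 and 1.04% without GC3. A fit of all libraries with the mitochondrial share as a covariate called 0 members too. It called 0.783% of all genes in HU against GC and 0.957% in PBA against HU. HU and GC libraries did not overlap in that share, so this fit cannot fully separate it from unloading.

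Ribosomal protein genes averaged between 0.270 FPKM (Rps10) and 1041 FPKM (Rplp1) over the 9 libraries, with a median gene at 110.3 FPKM. Of the 76 genes, 43 averaged at least 100 FPKM and 16 at least 200 FPKM. Reads were found in every library for 74 genes, the exceptions being Rpl24 and Rps10. The deposited gene length counts all annotated exons of a gene, with a median of 1775.5 bases, whereas the principal mRNAs of these genes had a median of 705 bases. Levels were therefore also rescaled to mRNA length when genes were compared with each other.

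The P stalk, formed by Rplp0, Rplp1 and Rplp2 at the flank of the large subunit, recruits elongation factors. Rplp1 was the highest of the 76 genes on both length scales, with 803, 1388 and 1408 FPKM in PBA1 to PBA3, 678, 818 and 658 FPKM in HU1 to HU3, and 1249, 1025 and 1346 FPKM in GC1 to GC3. All 3 HU values lay below all GC values, and PBA1 lay with the HU libraries. The HU over GC log2 difference was -0.75 ± 0.36 (SE), with a limma adjusted p of 0.204 over all genes tested, and it passed only with scaling to total reads (-1.81, adjusted p = 0.0444), which moved the median of all genes to -0.78. Rplp0, the base of the stalk, had 298, 373 and 398 FPKM in PBA, 387, 249 and 365 FPKM in HU, and 394, 359 and 298 FPKM in GC libraries, so the groups overlapped. Rplp2 had 67.4, 75.6 and 83.0 FPKM in PBA, 44.9, 56.3 and 70.1 FPKM in HU, and 74.2, 63.6 and 75.9 FPKM in GC libraries, again with overlap.

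By deposited FPKM the genes after Rplp1 were Rpl36, Rps15, Rplp0 and Rpl26. Rpl36, of the large subunit, had 367, 739 and 981 FPKM in PBA, 420, 536 and 463 FPKM in HU, and 540, 564 and 743 FPKM in GC libraries. Rps15, a small subunit protein that reaches the decoding centre, had 386, 565 and 850 FPKM in PBA, 303, 468 and 469 FPKM in HU, and 471, 475 and 501 FPKM in GC libraries. Rpl26, at the exit of the peptide tunnel, had 156, 301 and 396 FPKM in PBA, 212, 255 and 230 FPKM in HU, and 304, 278 and 327 FPKM in GC libraries. In these 3 genes PBA1 was the lowest and PBA3 the highest of the treated libraries, and each HU value was below each GC value. Rescaled to mRNA length, the highest were Rplp1, Rpl26 and Rps15, at 1041, 750 and 629 FPKM. Rpl26 and Rps15 differed by less than the SD of either over the 9 libraries, whereas Rplp1 and Rpl26 differed by less than the SD of Rplp1 but by more than that of Rpl26.

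Rpsa, a small subunit protein also known as the laminin receptor precursor, had 130, 208 and 222 FPKM in PBA, 136, 131 and 124 FPKM in HU, and 186, 178 and 190 FPKM in GC libraries. The HU and GC ranges were narrow and apart, while PBA1 lay within the HU range and PBA2 and PBA3 above every control (HU over GC log2 difference -0.50 ± 0.29, SE, limma adjusted p = 0.272). Rps27a, made as a fusion of ubiquitin with a small subunit protein, had 41.0, 59.9 and 36.6 FPKM in PBA, 42.3, 50.3 and 49.6 FPKM in HU, and 61.0, 44.5 and 45.1 FPKM in GC libraries. Its 3 groups overlapped throughout.

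**Figure D1:**
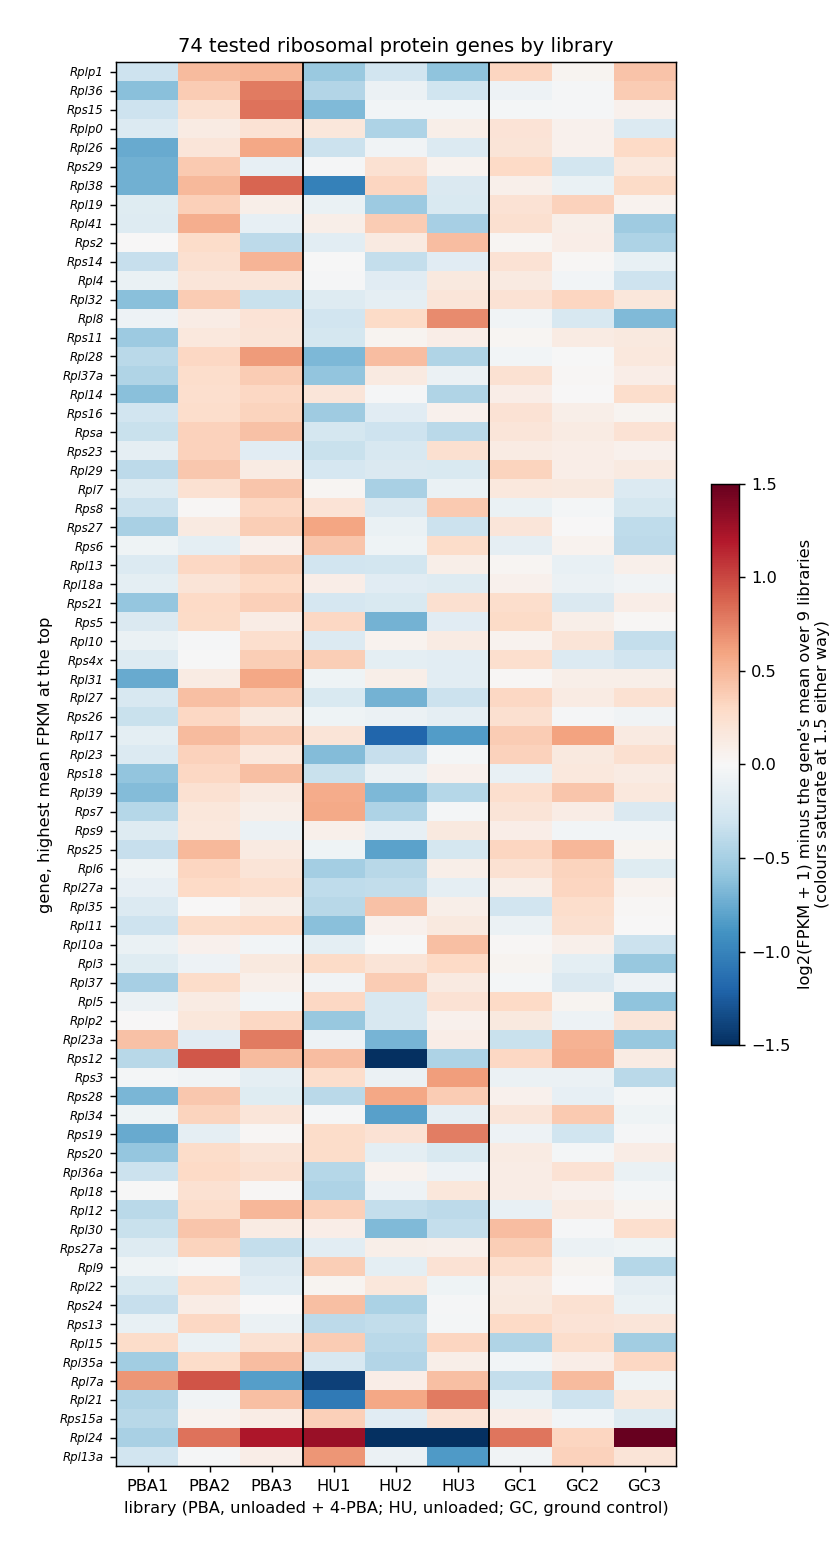
Log2(FPKM + 1) of 74 of the 75 tested ribosomal protein genes (rows, highest mean FPKM at the top) in each of the 9 libraries (columns, 3 PBA, 3 HU and 3 GC), as the difference from the gene's own mean over the 9 libraries, with red above it and blue below it. The PBA1 column is blue for 69 of the 74 genes, while PBA2 and PBA3 are red for 63 and 59, and Rpl24 is at the dark blue end in HU2 and HU3.

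Most members deviated the same way within each treated library, and less so in the others (heat map of tested members). For 75 genes with at least 1 FPKM in at least 3 libraries, each value was set against the gene's own mean on the log2(FPKM + 1) scale. The median deviation was -0.31 for PBA1, where 70 of the 75 genes lay below their own mean. It was 0.27 for PBA2, with 64 genes above their mean, and 0.20 for PBA3, with 60 genes above. HU1, HU2 and HU3 had medians of -0.08, -0.14 and -0.02, with 46, 54 and 39 genes below their mean. GC1, GC2 and GC3 had medians of 0.13, 0.08 and 0.02, with 56, 50 and 40 genes above. The 2 extremes of the 9 libraries were thus both in the treated group, and the distance between PBA1 and PBA2 exceeded that between any HU and any GC library. Of the 75 genes, 66 were lowest of the treated libraries in PBA1, and the median gene was 1.47-fold higher in PBA2 and 1.43-fold higher in PBA3 than in PBA1.

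All 12642 genes tested had library medians between -0.08 and 0.03 on the same scale. The 1227 other protein-coding genes with a mean of at least 20 FPKM had median deviations of 0.20 (PBA1), 0.41 (PBA2) and -0.33 (PBA3). For these genes the medians were -0.35, -0.28 and -0.19 in HU1, HU2 and HU3, further below their mean than members were, and 0.32, 0.37 and 0.01 in GC1, GC2 and GC3. Abundant genes outside the family were therefore above their mean in PBA1, where ribosomal protein genes were below it, and below their mean in PBA3, where ribosomal protein genes were above it.

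**Figure D2:**
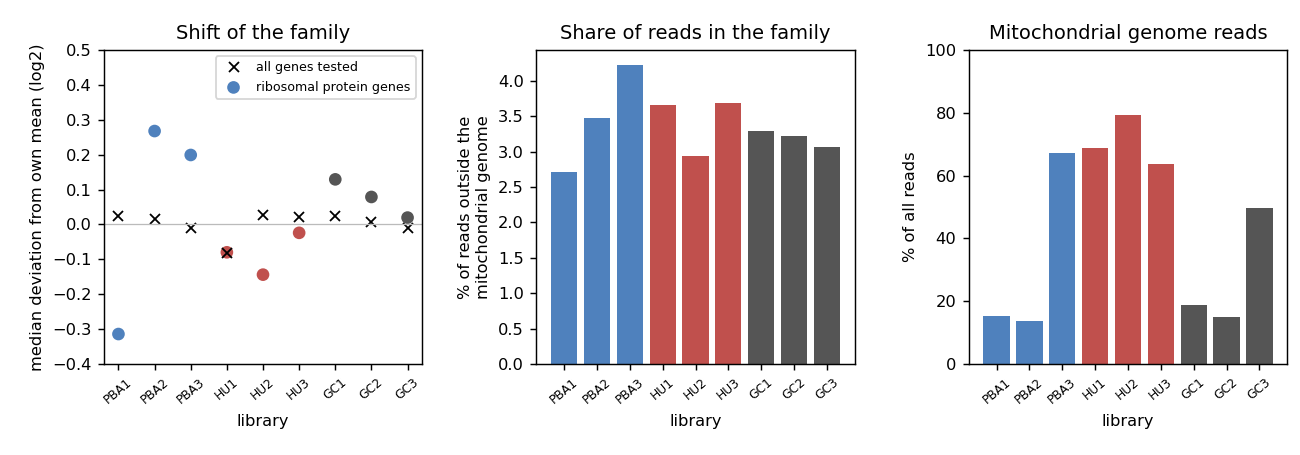
Left, median deviation of the 75 ribosomal protein genes (dots) and of all 12642 genes tested (crosses) from their own mean in each library, log2 scale. Middle, reads of the 76 genes as a percentage of reads outside the mitochondrial genome, and right, mitochondrial reads as a percentage of all reads. The lowest and highest family shares, 2.71% in PBA1 and 4.22% in PBA3, are both in the treated group.

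As a share of reads outside the mitochondrial genome, the 76 genes made up 2.71%, 3.48% and 4.22% in PBA1, PBA2 and PBA3. The shares were 3.66%, 2.94% and 3.69% in HU libraries and 3.30%, 3.22% and 3.06% in GC libraries. The 95% Wilson intervals were narrow, for example 2.70% to 2.72% in PBA1 and 4.20% to 4.25% in PBA3, and cover counting error only. Group means were 3.47% ± 0.759 in PBA, 3.43% ± 0.422 in HU and 3.19% ± 0.120 in GC libraries (SD, n = 3 each), so the means lay within the spread of the PBA and HU libraries. Summed FPKM were 8486, 12961 and 13392 in PBA, 9533, 9773 and 10188 in HU, and 11734, 11181 and 11050 in GC libraries. On this scale every HU library was below every GC library, while by share 2 of the 3 HU libraries were above every GC library. The order of unloaded and control kidneys thus depended on the scale.

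The effect of hindlimb unloading with vehicle was read from HU against GC. limma was fitted to log2(FPKM + 1) of the 12642 genes with all 9 libraries in 1 model, and a gene was called at a Benjamini-Hochberg adjusted p under 0.05 over all of them. No ribosomal protein gene was called in either direction, 0 of 75, where 10.2% of all genes were called (1292 genes, 5.32% higher and 4.90% lower). Before adjustment, 2 of 75 members and 29.8% of all genes had a p under 0.05. Run on the recovered reads, limma-voom also called 0 members, against 10.4% of all genes in that fit, and had 6 members and 29.8% of all genes with an unadjusted p below that level. Of the 75 log2 differences 50 were negative, with a median of -0.17 against -0.03 for all genes. The 1300 protein-coding genes with a mean of at least 20 FPKM had a median of -0.49. This set has a lower limit only and includes most members, so it is not matched to them in level. The median of members thus lay below that of all genes but above that of the abundant genes, and these differences were not tested. The large subunit had a median of -0.22 (46 genes) and the small subunit -0.11 (29 genes).

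**Figure D3:**
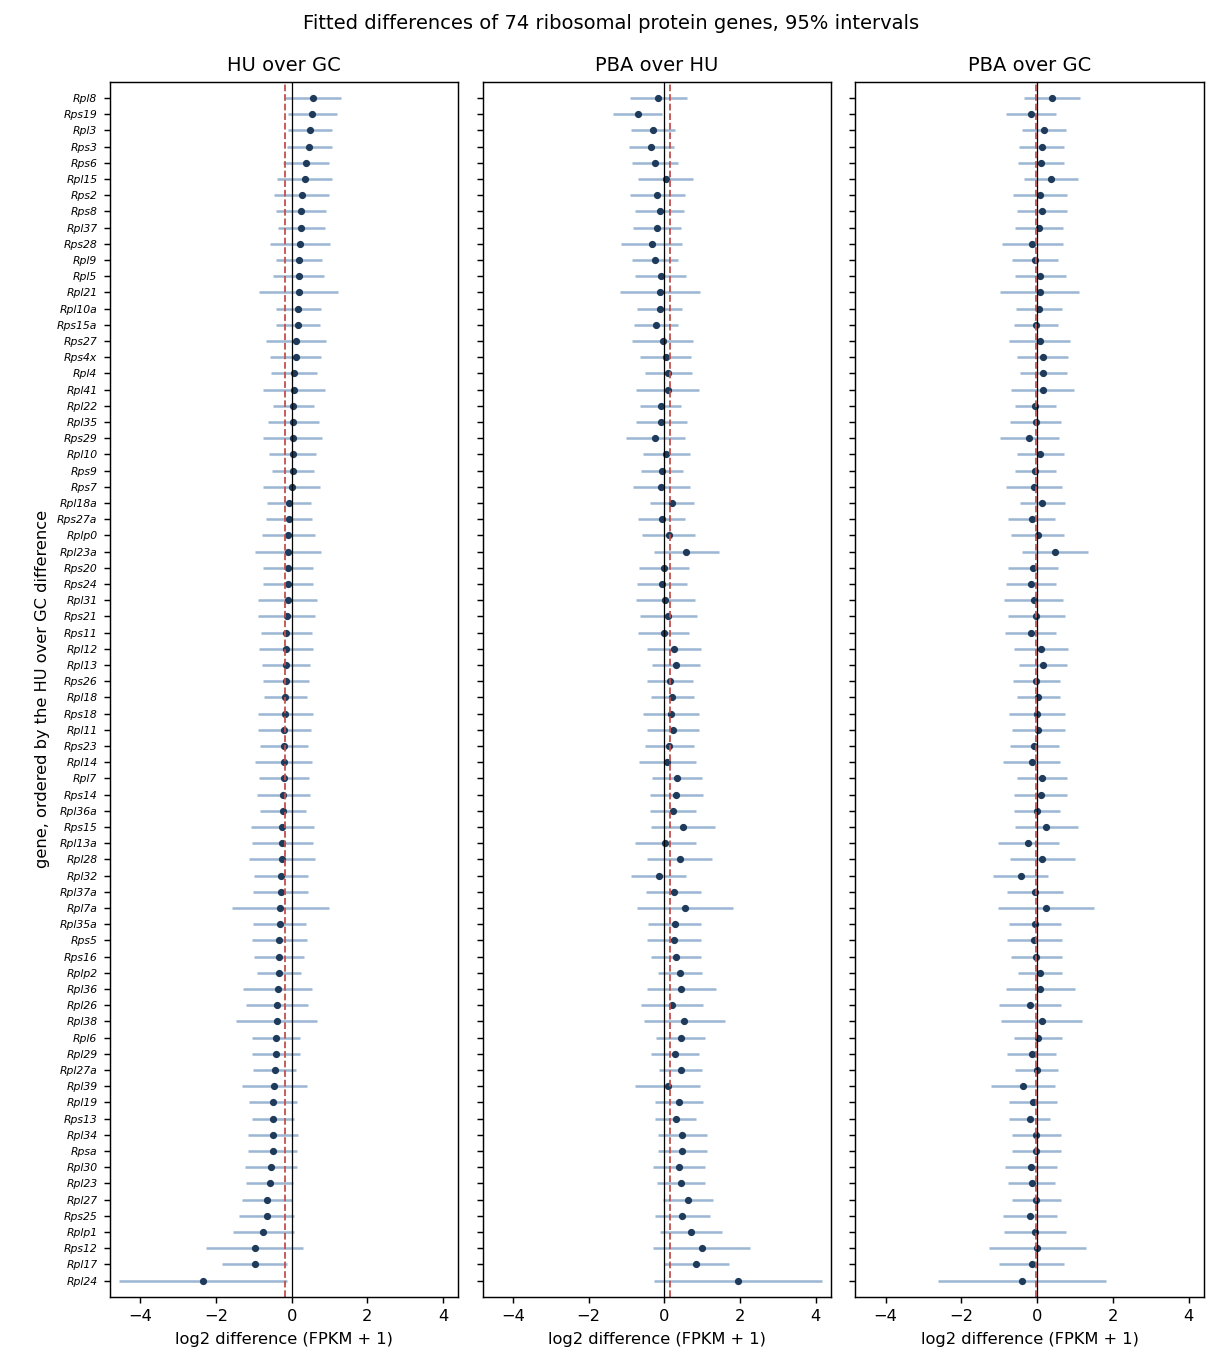
Fitted log2 difference (dots) and 95% interval (bars) of 74 of the 75 tested genes for HU over GC, PBA over HU and PBA over GC, ordered by the HU over GC difference, with the median of all 75 as a dashed red line. Most dots lie within 1 log2 unit of 0, the medians are -0.17, 0.14 and -0.02, and Rpl24 has the widest interval in each panel.

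The intervals bounded the size of a change for many members (plot of differences with intervals). In HU against GC the 95% interval lay within 1 log2 unit of 0, a doubling or halving, for 40 of 75 members and for 24.7% of all genes. Absolute differences above 1 were found in 1.33% of members (1 gene, Rpl24), in 24.1% of all genes and in 36.2% of the 1300 abundant protein-coding genes. Of those 1300, which include most of the family, 62 were called higher and 192 lower. The residual spread of members was also small, with a median SD of 0.31 on the log2 scale against 0.44 for all genes.

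HU and GC values did not overlap for 16 of the 75 members, 2 higher and 14 lower in HU, where 37.7% of all genes did not overlap (18.3% higher and 19.4% lower). The 2 that were higher were Rps19 and Rpl3 (named for this alone, after its values were seen), and the 14 that were lower included Rplp1, Rpsa, Rpl36, Rps15 and Rpl26. The share of members, in total and among those higher, was below that of all genes, and among those lower it was close to it.

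The 5 members with the smallest p in HU against GC were Rpl17, Rpl24, Rpl27, Rpl23 and Rps25. Rpl17, which lines the peptide tunnel, had 98.4, 152 and 142 FPKM in PBA, 125, 47.3 and 60.9 FPKM in HU, and 142, 166 and 120 FPKM in GC libraries. HU1 lay with the controls, and HU2 and HU3 were below every other library. The HU over GC log2 difference was -0.98 ± 0.38 (SE), with a limma adjusted p of 0.124, and it passed the threshold without HU1 (-1.38, adjusted p = 0.0427) and with library weights (-1.18, adjusted p = 0.0122).

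Rpl24 forms a bridge between the subunits, and its partial loss in the mouse mutant Belly spot and tail lowers translation. It had 3.93, 11.2 and 15.1 FPKM in PBA libraries, 15.9, 0 and 0 FPKM in HU libraries and 11.0, 7.66 and 20.4 FPKM in GC libraries. These were 101, 264 and 97 reads in PBA, 98, 0 and 0 reads in HU, and 221, 189 and 230 reads in GC libraries. HU1 was above 2 of the 3 controls, whereas HU2 and HU3 had no read, where 3 reads would be 0.936 and 0.429 FPKM. The HU over GC log2 difference was -2.35 ± 0.99 (SE, limma adjusted p = 0.148), the lowest of the family. With 2 libraries at 0 its size depended on the pseudocount, and was -4.48 with 0.1 and -1.25 with 4 in place of 1, neither past the threshold. It passed the threshold without HU1 (-3.71, adjusted p = 0.0177), with library weights (-3.05, adjusted p = 0.00542) and with scaling to total reads (-2.84, adjusted p = 0.0324).

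Rpl27, whose human gene is mutated in some Diamond-Blackfan anaemia families, had 112, 182 and 175 FPKM in PBA, 113, 80.4 and 105 FPKM in HU, and 165, 144 and 155 FPKM in GC libraries. Rpl23, at the interface of the subunits and known to bind MDM2, had 93.1, 138 and 120 FPKM in PBA, 68.1, 85.0 and 106 FPKM in HU, and 138, 119 and 127 FPKM in GC libraries. Rps25, a small subunit protein needed by several viral internal ribosome entry sites, had 77.3, 138 and 109 FPKM in PBA, 93.8, 55.9 and 81.9 FPKM in HU, and 123, 139 and 102 FPKM in GC libraries. In these 3 genes every HU value was below every GC value, and PBA1 was within the HU range. Their HU over GC log2 differences were -0.64 for Rpl27, -0.58 for Rpl23 and -0.67 for Rps25, with limma adjusted p of 0.174, 0.198 and 0.199.

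At the other end, Rpl8, which sits near the peptidyl transferase centre, had 198, 225 and 240 FPKM in PBA, 171, 254 and 340 FPKM in HU, and 200, 177 and 131 FPKM in GC libraries. The HU libraries spanned 171 to 340 FPKM and overlapped the controls, and the log2 difference was 0.55 ± 0.33 (SE, limma adjusted p = 0.290). With scaling to total reads it was -0.51, where the median of all genes was -0.78, so Rpl8 was above the median gene on both scales.

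**Figure D4:**
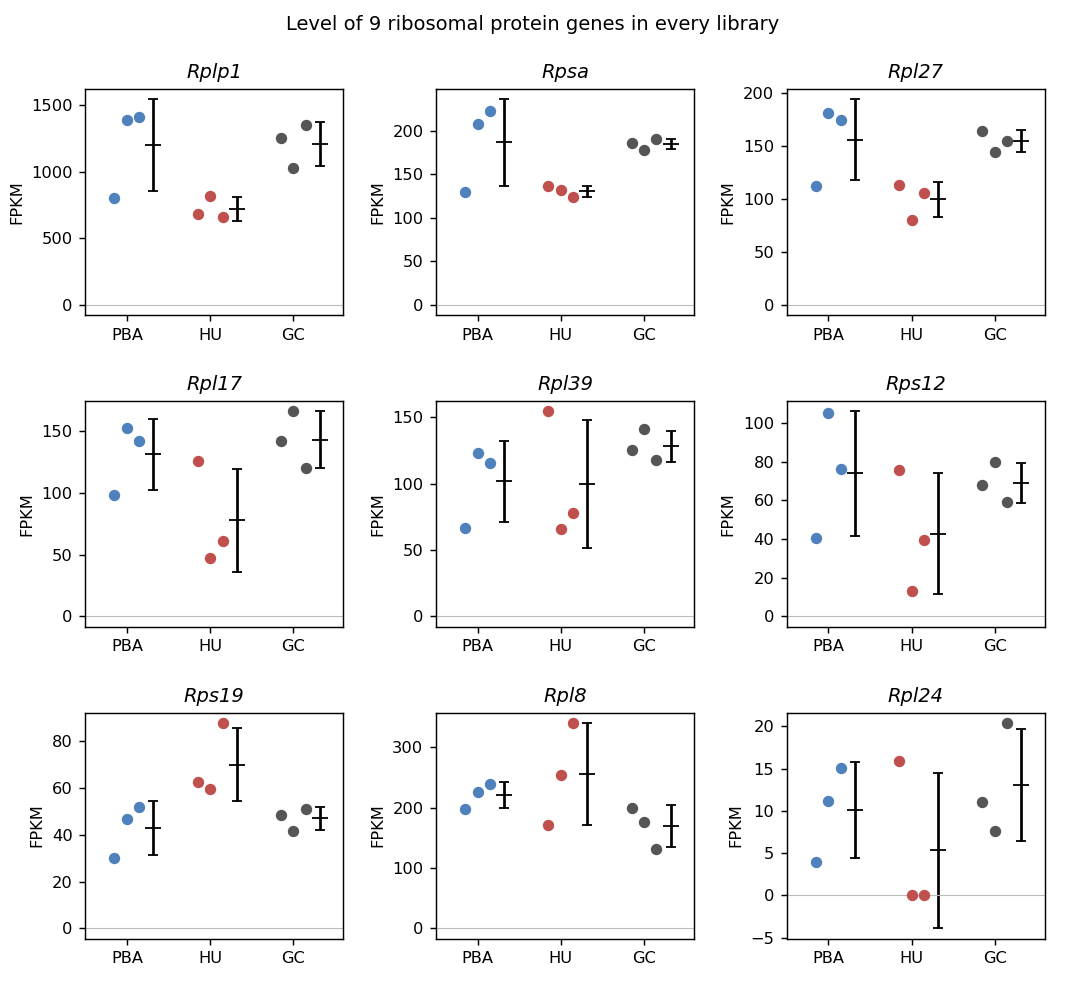
FPKM of 9 ribosomal protein genes in the 3 PBA, 3 HU and 3 GC libraries (dots, replicate 1 to 3 from left to right), with the mean and SD of each group beside them (black). In Rplp1, Rpsa and Rpl27 every HU value is below every GC value, while in Rpl17, Rpl39, Rps12 and Rpl24 HU1 is far above HU2 and HU3. The SD bar of Rpl24 in HU reaches below 0 because 2 of its 3 values are 0.

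The 3 unloaded libraries differed from each other in single members (plot of 9 genes by library). HU1 was more than 1.5-fold above both HU2 and HU3 for 8 of 75 members and more than 1.5-fold below both for 6. Rpl39, in the wall of the peptide tunnel, had 66.6, 123 and 116 FPKM in PBA, 155, 65.6 and 77.9 FPKM in HU, and 125, 141 and 118 FPKM in GC libraries. Rps12, a small subunit protein chosen here after its values were seen, had 40.7, 105 and 76.03 FPKM in PBA, 75.5, 13.2 and 39.3 FPKM in HU, and 67.8, 79.7 and 59.3 FPKM in GC libraries. In both genes HU1 was within or above the GC range and the other 2 unloaded libraries were below it. The median coefficient of variation within a group was 22.5% in PBA, 21.3% in HU and 12.0% in GC libraries, and 14, 11 and 2 of 75 members varied more than 2-fold within these groups.

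PBA against HU sets 4-PBA against vehicle in unloaded mice. limma called 0 of 75 members, where 2.69% of all genes were called (340 genes, 1.16% higher and 1.53% lower). Before adjustment, 1 member had a p under 0.05, against 20.1% of all genes. The limma-voom fit called 0 as well, against 3.63% of all genes, and before adjustment had 4 members and 22.1% of all genes below that level. The median log2 difference was 0.14 for members, 0.02 for all genes and 0.33 for the 1300 abundant protein-coding genes, and 50 of 75 members and 904 of those 1300 were positive. The median was 0.23 in the large subunit and -0.00 in the small subunit. Without PBA1 the median member was at 0.36. PBA and HU values did not overlap for 1 member that was higher (Rpl27a) and 2 that were lower (Rps19 and Rpl3), where 20.3% of all genes did not overlap. HU libraries enter this comparison and the previous one, so the 2 do not stand as separate support for each other.

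Rps19, a small subunit protein whose gene is the most often mutated in Diamond-Blackfan anaemia, had the smallest p. It had 30.0, 46.8 and 51.8 FPKM in PBA, 62.5, 59.6 and 87.9 FPKM in HU, and 48.6, 41.6 and 50.8 FPKM in GC libraries. Every HU library was above every other library, and PBA1 was the lowest of all. The PBA over HU log2 difference was -0.71 ± 0.29 (SE, limma adjusted p = 0.215). It passed the threshold with library weights (-1.17, adjusted p = 0.0198) and was 0.25 with scaling to total reads, where the median of all genes was 0.71, so Rps19 was below the median gene on both scales.

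The next 4 by p in PBA against HU were Rpl17, Rpl27, Rpl24 and Rplp1, whose values are given above. Their log2 differences were positive, 0.84 for Rpl17, 0.63 for Rpl27, 1.94 for Rpl24 and 0.70 for Rplp1, with limma adjusted p between 0.256 and 0.317. Rpl24 passed without HU1 (3.31, adjusted p = 0.0278), which leaves only HU libraries with no read of it.

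PBA against GC sets unloaded and treated mice beside untreated controls. limma called 0 members and 0 of all genes (0%), and before adjustment 0 members and 1.31% of all genes had a p under 0.05. The limma-voom fit called 0 too. The median log2 difference was -0.02 for members, -0.00 for all genes and -0.14 for the 1300 abundant protein-coding genes, and members ran from -0.43 (Rpl32) to 0.48 (Rpl23a). The interval lay within 1 log2 unit of 0 for 61 of 75 members, against 45.3% of all genes. No member had PBA and GC values apart, where 8.00% of all genes did (4.37% higher and 3.63% lower).

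Rpl32, a large subunit protein often used as a reference transcript, had 137, 277 and 169 FPKM in PBA, 186, 193 and 241 FPKM in HU, and 247, 266 and 239 FPKM in GC libraries. Rpl23a, at the tunnel exit where the signal recognition particle docks, had 83.4, 54.3 and 106 FPKM in PBA, 57.7, 37.2 and 65.6 FPKM in HU, and 48.1, 88.2 and 41.0 FPKM in GC libraries. Rpl15 had 48.0, 36.7 and 46.4 FPKM in PBA, 51.5, 29.6 and 49.7 FPKM in HU, and 28.5, 47.5 and 27.1 FPKM in GC libraries. PBA2 was the highest of all libraries in Rpl32, and GC2 was far above the other controls in Rpl23a and Rpl15, so the groups overlapped. With Rpl8 and Rpl39, given above, these were the 5 smallest p of the comparison, and each had a limma adjusted p of 1.

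The lowest genes of the family shared a feature of annotation. Same-strand overlap of a member's exons with exons of another gene was highest in Rpl24 (47.0% of exon bases), Rpl13a (35.4%) and Rps10 (20.6%), and the next highest was 14.5% (Rpl32). These 3 were also the lowest of the 76 on both length scales. Rescaled to mRNA length they averaged 14.4 FPKM for Rpl24, 15.1 FPKM for Rpl13a and 1.25 FPKM for Rps10, against 47.8 FPKM for the next lowest, Rpl7a. The overlapping genes, Gm28037 for Rpl24, Gm45713 for Rpl13a and RPS10-NUDT3 for Rps10, were each listed at 0 in all 9 libraries. How the authors' counting treated reads that lie in more than 1 gene is not given in the sources used here, and its part in these low values was not tested.

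**Figure D5:**
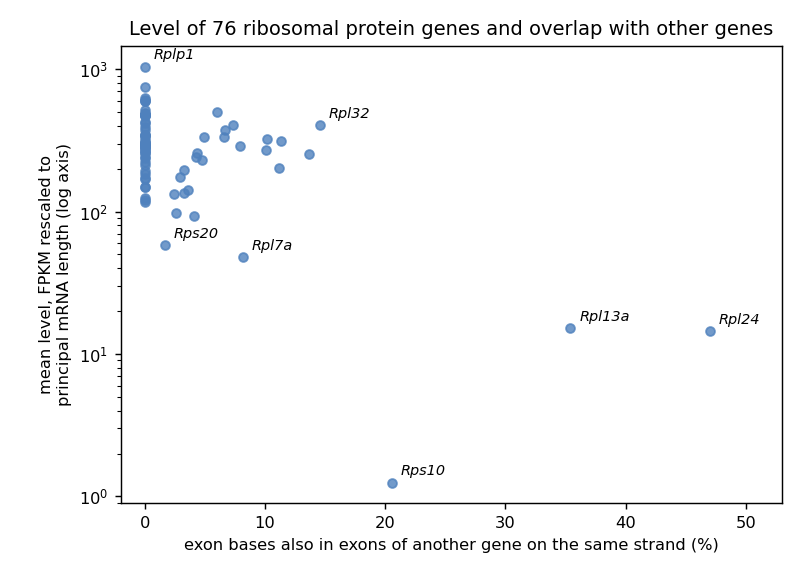
Mean FPKM over 9 libraries rescaled to principal mRNA length (log axis) against the share of exon bases that lie in exons of another gene on the same strand, for the 76 ribosomal protein genes. Rpl24, Rpl13a and Rps10 lie apart at the lower right, and the genes with no overlap lie between 117 and 1041 FPKM.

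Rpl13a, a large subunit protein also known from the GAIT complex and as a reference transcript, had 5.68, 7.09 and 7.74 FPKM in PBA, 12.0, 6.69 and 3.56 FPKM in HU, and 6.86, 9.36 and 8.38 FPKM in GC libraries. Rpl21, of the large subunit, had 16.5, 22.1 and 31.6 FPKM in PBA, 10.4, 34.8 and 39.8 FPKM in HU, and 21.1, 18.2 and 25.8 FPKM in GC libraries. Rps15a, of the small subunit, had 17.8, 24.8 and 25.9 FPKM in PBA, 30.9, 21.1 and 27.7 FPKM in HU, and 25.8, 23.2 and 20.8 FPKM in GC libraries. The HU values enclosed all others in Rpl13a and Rpl21, and 4 of the 6 others in Rps15a.

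Rps10, a small subunit protein that is ubiquitinated when ribosomes collide, was the single member that was not tested. It had 0.139, 0.226 and 0.972 FPKM in PBA, 0, 0 and 0 FPKM in HU, and 0.534, 0.397 and 0.158 FPKM in GC libraries, from 84 reads in all. In the HU libraries, at 0, 3 reads would be 0.191 to 0.417 FPKM. Its 4 named pseudogenes held 8175 reads, 98.98% of the sum. The most abundant, Rps10-ps2 on chromosome 16, averaged 99.6 FPKM and differed from the Rps10 mRNA at 5 of 496 aligned bases. The stretch below (60 bases, from base 379 of the coding sequence of Rps10 in GENCODE mouse release M21) holds 4 of these 5, in capitals.
Rps10: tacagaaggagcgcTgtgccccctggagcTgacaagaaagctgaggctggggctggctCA
Rps10-ps2: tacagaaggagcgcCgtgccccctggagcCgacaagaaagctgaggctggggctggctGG

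Within the aligned bases, reads of the gene and of its pseudogene can be told apart only where they cover one of these bases. Reads of Rps10 and its named pseudogenes together, divided by the length of Rps10, came to 26.9, 31.2 and 25.3 FPKM in PBA, 22.3, 21.4 and 30.4 FPKM in HU, and 30.7, 27.8 and 32.7 FPKM in GC libraries. The sum was steadier than the gene alone, and HU and GC ranges overlapped only through HU3.

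The table held 290 named ribosomal protein pseudogenes, of which 183 had reads, and 58 members had at least 1 such pseudogene. Per 100 reads of members, named pseudogenes held 4.94 to 6.65 reads in PBA, 5.97 to 6.66 in HU and 4.79 to 5.80 in GC libraries. For the median of the 58 members with named pseudogenes these held 1.70% of the summed reads. Rps10 and Rpl17 were above 50%, with 69.7% in 11 pseudogenes for Rpl17, followed by Rpl7a with 42.6% and Rpl21 with 34.3%. When the reads of named pseudogenes were added to their gene, an alternative chosen after seeing the data, the HU over GC log2 difference of Rpl17 became -0.29 (limma adjusted p = 0.592). Summed, Rpl17 had 344, 442 and 562 FPKM in PBA, 439, 281 and 399 FPKM in HU, and 430, 511 and 409 FPKM in GC libraries, with groups that overlapped.

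Beyond named pseudogenes, 71 of 76 members shared at least 1 stretch of 100 bases with another gene's transcript, and the median member shared 41.4% of its 100-base windows. In 32 members it was over 50%. Rps27 shared 98.4% of its windows, most with Rps27rt, and Rps12 shared 88.9%, most with Rps12-ps3, which the table lists as protein-coding. Rps12-ps3 had 118, 198 and 179 FPKM in PBA, 283, 55.9 and 91.9 FPKM in HU, and 178, 230 and 201 FPKM in GC libraries, with HU1 high and HU2 low as in Rps12 itself. Values of such members are uncertain, as reads may have been split between copies.

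Of the 290 named pseudogenes 85 were tested. In HU against GC 5 were higher (5.88%) and 4 lower (4.71%), close to the 5.32% and 4.90% of all genes. Among them were Rps26-ps1 (log2 2.48, limma adjusted p = 0.00998) and Rps12-ps4 (log2 -3.34, limma adjusted p = 0.0133). Rps26-ps1 had 3.66, 7.77 and 4.29 FPKM in PBA, 22.0, 17.9 and 40.4 FPKM in HU, and 3.89, 5.11 and 2.44 FPKM in GC libraries. Rps12-ps4 had 12.7, 40.1 and 57.8 FPKM in PBA, 0.422, 1.62 and 2.97 FPKM in HU, and 19.5, 19.5 and 35.4 FPKM in GC libraries. HU libraries stood apart from all others in both, above in Rps26-ps1 and below in Rps12-ps4. The other pseudogenes of the largest differences, Rpl30-ps1 and Rpl38-ps1, were higher in HU (log2 2.76 and 2.66, limma adjusted p = 0.0472 and 0.0264). In PBA against HU 1 was higher and 2 lower, 3.53% in all against 2.69% of all genes. They were Rps12-ps4 (log2 3.71, limma adjusted p = 0.0144), Rps26-ps1 (log2 -2.13, limma adjusted p = 0.0253) and Rpl21-ps11 (log2 -1.63, limma adjusted p = 0.0331). Pseudogenes as a whole took 3.73% to 7.54% of reads outside the mitochondrial genome in HU libraries and 4.83% in PBA3, against 0.955% to 1.76% elsewhere, and its part in these calls was not tested.

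Rps3a1, Fau and Rack1, which the name rule leaves out, were not called in any comparison. Rps3a1, of the small subunit, had 386, 467 and 483 FPKM in PBA, 526, 366 and 524 FPKM in HU, and 439, 403 and 364 FPKM in GC libraries. Fau, made as a fusion of a ubiquitin-like protein with a small subunit protein, had 234, 301 and 280 FPKM in PBA, 264, 387 and 447 FPKM in HU, and 292, 275 and 238 FPKM in GC libraries. Rack1 had 51.9, 67.4 and 82.9 FPKM in PBA, 76.3, 49.5 and 51.8 FPKM in HU, and 68.8, 64.9 and 73.6 FPKM in GC libraries. Groups overlapped in all 3.

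Other genes of translation were counted from fixed lists. In HU against GC limma called 0 of 11 elongation and release factors and 0 of 26 other TOP mRNAs, with medians of -0.14 and 0.11 and with 2 and 1 at an unadjusted p under 0.05. Of 26 initiation factors 1 was lower (3.85%, against 4.90% of all genes), the guanine exchange factor subunit Eif2b2 (log2 -1.70, limma adjusted p = 0.0462). Of 14 genes of ribosome quality control 0 were called, with a median of -0.52, 12 of 14 negative and 6 at an unadjusted p under 0.05. Such a p was found in 29.8% of all genes (median -0.03) and in 42.6% of the 1300 abundant protein-coding genes (median -0.49). Negative were 6544 of all 12642 genes and 919 of those 1300, and no list was tested against them.

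Among 48 genes of ribosomal RNA transcription and ribosome biogenesis 1 was higher and 2 lower in HU than in GC, 6.25% against 10.2% of all genes, so the list was not called more often than genes at large. Nhp2, a protein of the H/ACA particles that guide pseudouridylation, had 40.8, 74.3 and 44.6 FPKM in PBA, 4.68, 16.5 and 19.2 FPKM in HU, and 55.7, 53.1 and 52.0 FPKM in GC libraries. Each HU value was below every other value, and Nhp2 was called lower in HU than in GC (log2 -2.11, limma adjusted p = 0.0257) and higher in PBA than in HU (log2 2.05, limma adjusted p = 0.0497). The RNA polymerase I subunit Polr1e was lower in HU than in GC (log2 -1.15, limma adjusted p = 0.0376), and the 40S maturation factor Tsr1 was higher (log2 1.35, limma adjusted p = 0.0376).

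Of 18 genes of mTORC1 and TOP translation control, Mtor, the kinase of that complex, was lower in HU than in GC and Akt1, a kinase upstream of it, was higher. These 2 were 11.1% of the list, against 10.2% of all genes. Mtor had 8.76, 11.0 and 7.14 FPKM in PBA, 2.32, 5.31 and 3.28 FPKM in HU, and 12.7, 11.1 and 12.5 FPKM in GC libraries (HU over GC log2 -1.55, limma adjusted p = 0.0163). Akt1 had 13.9, 11.0 and 17.3 FPKM in PBA, 21.9, 20.0 and 18.4 FPKM in HU, and 9.46, 9.53 and 10.1 FPKM in GC libraries (log2 0.98, limma adjusted p = 0.0334). HU lay outside the range of the other groups in both, with neither called in PBA against HU. mRNA levels say nothing of the activity of the kinases.

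Ribosomal proteins of mitochondria, which belong to a separate ribosome, were counted for comparison. In HU against GC limma called 6 of 77 lower (7.79%) and 0 higher, against 4.90% of all genes and 14.8% of the 1300 abundant protein-coding genes called lower. The median was -0.60 and 69 of 77 were negative, where the abundant genes had a median of -0.49 and 919 of 1300 negative. The largest were Mrps18b (log2 -1.55, limma adjusted p = 0.0191) and Mrpl20 (log2 -1.49, limma adjusted p = 0.0356). In PBA against HU 2 were higher (2.597%, against 1.16% of all genes), Mrps18b (log2 1.79, limma adjusted p = 0.0203) and Mrpl28 (log2 1.22, limma adjusted p = 0.0476). Mrpl28 had 42.3, 73.2 and 54.3 FPKM in PBA, 23.0, 21.9 and 24.6 FPKM in HU, and 58.0, 54.0 and 44.4 FPKM in GC libraries, with all HU values below all others. The difference between the mitochondrial and the cytosolic list was not tested. In PBA against GC no gene of any of these lists was called.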

How the data were processed

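Per the labels' protocols, poly-T purified RNA gave dUTP directional libraries, read in pairs. Per the submitters' processing notes, the tools were HISAT2, cutadapt and CASAVA and the mouse build mm10. No version and no read counter is given in the sources used here. For each gene and library the authors deposited an FPKM value. Each value times gene length and a library constant gave whole reads for 100% of values (tolerance 0.01), which gave the depths; that constant is not the library total.

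The 9 libraries, 3 per group from their labels, entered 1 limma fit (3.58.1, R 4.3.3, empirical Bayes with a trend) on log2(FPKM + 1), for genes with at least 1 FPKM in at least 3 libraries. Differences are on that scale, which understates changes of low genes. No 2 libraries agreed within sampling noise. Members and gene lists were chosen with earlier results of these data known. Genes are named by rule: the 5 smallest p of a comparison, the 5 highest and lowest by mean FPKM, the P stalk, Rpsa, Rps27a, and up to 4 genes per list; Rps12, Rps12-ps3, Rps27rt, Rpl3 and 3 of the genes outside the name rule were added afterwards. Sequences are from RefSeq (GRCm38.p6) and GENCODE mouse release M21. The code was tested on simulated data. Figures used Python with matplotlib. A member included in all counts and fits is not reported here by name. Alternatives covered scaling, filters, pseudocounts, fits on fewer groups, a replicate block, a covariate, limma-voom, library weights and each library left out. Same-numbered libraries were not treated as pairs. Their correlations (-0.20 to 0.29), with 3 libraries a group, cannot show whether they are.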

Additional observations from a re-analysis of the deposited data

How the results depend on the processing

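The count of members called and the median member difference were recomputed under 25 alternatives for each comparison. In HU against GC 0 members were called in 22 of 25. The exceptions called 2 of 75 members each: with scaling to total reads (Rplp1 and Rpl24; 18.5% of all genes), with library weights (Rpl17 and Rpl24; 31.5% of all genes) and without HU1 (Rpl17 and Rpl24; 7.48% of all genes). Leaving out each library in turn gave 0 to 2 members. In PBA against HU 0 were called in 23 of 25, with 1 by library weights (Rps19; 16.2% of all genes) and 1 without HU1 (Rpl24; 1.709% of all genes), so 0 to 1 over the libraries left out. In PBA against GC 0 were called in 25 of 25, and in each of these 0% of all genes were called. In the 22 alternatives of HU against GC with 0 members, 0.546% (without GC1) to 18.7% (without PBA3) of all genes were called. In the 23 of PBA against HU the share was 0.0559% (no filter on low values) to 10.4% (without PBA3). A count of 0 members says little where few genes are called at all.

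The median member difference, -0.17 in HU against GC, became -1.22 with scaling to total reads (all genes -0.78), 0.053 with scaling to reads outside the mitochondrial genome (all genes 0.13) and 0.095 with libraries centred on the median member (all genes 0.23). Such scalings move all genes of a library alike, so the place of members relative to all genes is not tested anew by them. It ran from -0.23 to -0.10 over the libraries left out. In PBA against HU, 0.14 became 1.11 with scaling to total reads (all genes 0.71), -0.074 with libraries centred on the median member (all genes -0.20) and -0.086 with library weights, and ran from 0.068 to 0.36 over the libraries left out, the highest without PBA1. In PBA against GC it was -0.28 with library weights and ran from -0.11 to 0.15 over the libraries left out. The causes were not tested. As log2 ratios of group means the summed level was -0.20 in HU over GC by FPKM and 0.10 by share of reads outside the mitochondrial genome.

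The single members named by p or as the lowest or highest difference had 400 alternatives. Of these, 391 kept the direction and the side of the threshold, which meant not called, as in the main fit. Another 7 newly passed it, and 2 changed sign with scaling to total reads. The sign changed for Rpl8 in HU against GC (-0.51, all genes -0.78) and Rps19 in PBA against HU (0.25, all genes 0.71). Relative to the median gene neither turned round. With the replicate number as a block 0 members were called in each comparison, as without it. That fit called 7.15% of all genes in HU against GC, 1.08% in PBA against HU and 0% in PBA against GC. Of the 9 libraries 2 were closest to one of their own number. Libraries were not treated as pairs, as the labels tie none to a named animal. A quasi-likelihood test on recovered reads had been planned and was not run, as the values are FPKM. With 3 libraries a group, a doubling or halving could go undetected in members whose interval did not lie within 1 log2 unit of 0.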

Other observations

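Of 9 ribosomal protein paralogs 6 were tested, and 0 were called in any comparison. Of all genes 10.2% were called in HU against GC, 2.69% in PBA against HU and 0% in PBA against GC, so 0 of 6 says little. In HU against GC the paralogs had a median log2 difference of -0.72 (all genes -0.03), with 4 negative and 2 positive. Of the 6, 3 had an unadjusted limma p under 0.05, against 29.8% of all genes. Rps27l, a paralog of Rps27 that is induced by p53, came nearest, with 111, 183 and 52.3 FPKM in PBA, 83.5, 42.5 and 56.0 FPKM in HU, and 178, 208 and 146 FPKM in GC libraries. All HU values were below all GC values (log2 -1.57, limma adjusted p = 0.0560). Rps4l had 22.8, 15.2 and 34.4 FPKM in PBA, 15.3, 8.18 and 10.8 FPKM in HU, and 20.0, 18.9 and 21.4 FPKM in GC libraries (HU over GC log2 -0.80, limma adjusted p = 0.140). The copy Rps27rt, chosen after its values were seen, which shares most of its sequence with Rps27, had 51.4, 156 and 219 FPKM in PBA, 249, 194 and 184 FPKM in HU, and 200, 230 and 169 FPKM in GC libraries, with PBA1 again the lowest of all.

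Across the 75 tested members, which share libraries and depth, the HU over GC difference had a Spearman correlation of 0.25 with mRNA length, 0.27 with coding length and -0.03 with the share of 100-base windows found in other genes.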
